A study of Homo sapiens with 6 samples.

Results

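Krüppel-like factors (KLFs) are transcription factors that bind GC-rich DNA through C2H2 zinc fingers at their C-terminal end, at GC boxes and CACCC boxes that they share with the related SP proteins. The remainder of each protein differs and sets what it does on DNA: KLF2, KLF4, KLF5 and KLF6 recruit acetyltransferase coactivators, KLF3 recruits the corepressor CtBP, and KLF9, KLF10, KLF11 and KLF13 recruit the corepressor Sin3A. In mammary epithelium KLF4 is known as a brake on the cell cycle and a regulator of differentiation, and KLF5 as a growth-promoting factor whose protein is short-lived.

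The transcripts described here are 10 KLF genes of the 17891 genes in the deposited table, chosen by symbol: KLF2, KLF3, KLF4, KLF5, KLF6, KLF9, KLF10, KLF11, KLF13 and KLF15. All 10 were in the table and all 10 passed the filter on low counts. They were measured by RNA sequencing in T47D, an established human cell line of luminal breast cancer, grown in RPMI medium with serum. The PRL group (3 libraries) carried a PLVX-puro lentivirus with PRL, the gene of the hormone prolactin, and the control group (3 libraries) the same kind of lentivirus without it, so that both groups had been transduced. The series calls the 3 libraries of a group biological replicates. Whether they came from separate transductions, a pool or a clone is not given in the sources used here, and p-values measure the spread between these libraries. In bulk RNA, more cells that express a gene and more RNA of it per cell cannot be told apart.

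Libraries held 16211146 to 17402348 estimated counts, and PRL itself had 1 to 3 counts in controls and 7789 to 8277 in the PRL libraries. Luminal markers (10 genes) summed to 17695 to 19328 TPM (a level per transcript length) in controls and 17372 to 17596 TPM in the PRL group. The keratin genes KRT8, KRT18 and KRT19 made up most of these sums. All 10 were detected in every library. GATA3, FOXA1, PGR and CDH1 were called higher, and ESR1 and the 3 keratin genes lower. Basal and mesenchymal markers (6 genes) summed to 15.9 to 19.5 TPM in controls and 12.35 to 13.19 TPM in the PRL group, with TP63 called higher and ACTA2 lower. Markers of fibroblasts, endothelium and immune cells (7 genes) summed to 14.9 to 20.6 TPM in controls and 42.0 to 42.4 TPM in the PRL group, with CD68 and COL1A1 called higher. The endothelial gene CDH5 was at 0 in all controls and had 0 to 1 counts in the PRL libraries, and 0 to 2 of the 7 genes were at 0 in a library. Their part in the KLF results was not tested. Ribosomal protein genes took 14.6% to 17.5% of counts in controls and 9.58% to 10.1% in the PRL group. The scale matters for all genes: their median log2 fold change was 0.01 with TMM scaling (a trimmed mean of ratios between libraries), used throughout, and 0.26 with library totals, when 72.9% rather than 51.4% of called genes were higher.

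The regions before the starts of 4 of these genes are shown because they hold letters of the elements that KLF and SP proteins bind, for 3 genes that rose (KLF4, KLF6 and KLF13) and for KLF2, which did not pass the test. The sequences run 5′ to 3′ on the gene's strand, from 250 bases before the RefSeq start (GRCh38.p14) towards it, and stop where a GENCODE 29 exon begins. Capitals mark 4 patterns on either strand. The GC box was searched as GGGCGG and the CACCC box by the letters of its name. The E-box was searched as CACGTG. The MEF2-type pattern was CTA and TAG with any 4 bases between them. KLF4 is given from chr9:107489770-107490019 (minus strand), KLF6 from chr10:3785282-3785459 (minus strand), KLF13 from chr15:31326585-31326834 (plus strand) and KLF2 from chr19:16324576-16324816 (plus strand). The KLF4 window lies within the span of the gene in GENCODE 29 but outside its exons, and the other 3 lie before their genes.
KLF4: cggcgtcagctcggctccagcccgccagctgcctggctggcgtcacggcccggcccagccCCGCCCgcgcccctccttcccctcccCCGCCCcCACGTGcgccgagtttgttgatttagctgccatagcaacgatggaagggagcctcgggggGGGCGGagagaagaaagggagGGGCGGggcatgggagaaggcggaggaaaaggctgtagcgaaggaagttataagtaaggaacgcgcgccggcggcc
KLF6: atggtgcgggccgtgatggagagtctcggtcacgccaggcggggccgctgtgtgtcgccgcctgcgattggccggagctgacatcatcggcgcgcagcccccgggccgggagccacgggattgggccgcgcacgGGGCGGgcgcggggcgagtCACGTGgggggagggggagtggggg
KLF13: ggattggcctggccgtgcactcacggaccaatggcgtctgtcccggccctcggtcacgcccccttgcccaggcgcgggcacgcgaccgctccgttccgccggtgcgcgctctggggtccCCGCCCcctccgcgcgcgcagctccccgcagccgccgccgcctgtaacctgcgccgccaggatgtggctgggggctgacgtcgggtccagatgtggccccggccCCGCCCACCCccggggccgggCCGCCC
KLF2: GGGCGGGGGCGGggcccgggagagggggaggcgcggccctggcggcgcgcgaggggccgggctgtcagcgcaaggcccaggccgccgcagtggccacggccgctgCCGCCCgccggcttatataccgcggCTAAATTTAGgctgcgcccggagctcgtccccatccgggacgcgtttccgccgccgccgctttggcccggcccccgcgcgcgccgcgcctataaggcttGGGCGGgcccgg

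KLF4 held 4 GC boxes and 1 E-box in its 250 bases, and KLF13 held 3 GC boxes, of which 1 runs into a CACCC box by a shared base. KLF2 held 4 GC boxes, with an adjoining pair at its far end, and the only MEF2-type match of the 4 windows. MEF2 is the factor through which the kinase ERK5 is known to switch on KLF2 and KLF4. The RefSeq table gave full windows of 250 bases before the start for 8 of the 10 genes (10 windows, since KLF5 and KLF11 each have more than 1 start). A GC box lay in 8 of the 10 windows, against 42.6% of all 35116 windows in the table, and a CACCC box in 4 of 10, against 54.7%. An E-box, the motif bound by MYC, USF and clock proteins, lay in 4 of 10 windows (KLF4, KLF6, KLF11 and KLF15), against 6.34% of all windows. The MEF2-type pattern lay in 2 of 10 windows (KLF2 and KLF11; 2.36% of all windows), the cAMP response element TGACGTCA in 1 (KLF11; 1.65%), and the STAT-type pattern TTCNNNGAA in 0 of 10 (6.57%). All but 2 of the 10 windows were richer in GC than the median window of 58.0%. The counts cover whole windows, also the bases that a GENCODE exon shares. These matches describe letters in a window and not bound sites.

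The PRL and control libraries were compared to see how KLF transcripts stand when T47D cells carry extra PRL. Among the listed KLF genes 8 rose, each by at least 2-fold, and KLF2 and KLF15 did not pass the test (adjusted p under 0.05 over all 14076 genes tested, by edgeR's quasi-likelihood test with Benjamini-Hochberg adjustment). Among all genes tested, 32.4% were called higher and 10.6% were called with a rise of at least 2-fold. The list was chosen with earlier results of these data known, so these counts describe the listed genes and not the KLF family. No listed gene had a negative log2 fold change, so that 0 were lower at an unadjusted p of 0.05 as well, and DESeq2 and limma-voom also called 8 higher and 0 lower. For 9 of the 10 genes every PRL library lay above every control library in TMM-scaled CPM (counts scaled to library size). This held for 35.9% of all genes. The median log2 fold change was 1.27 for the listed genes and 0.01 for all genes tested. It was 1.53 against 0.26 with library totals, and 1.17 against 0.00 after removal of the trends on GC content and length. The 2-fold mark (1 on the log2 scale) was missed by KLF6 (0.93) and KLF9 (0.95) after that removal, and by KLF5 (0.96) and KLF9 (0.99) on log2 FPKM.

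**Figure D1:**
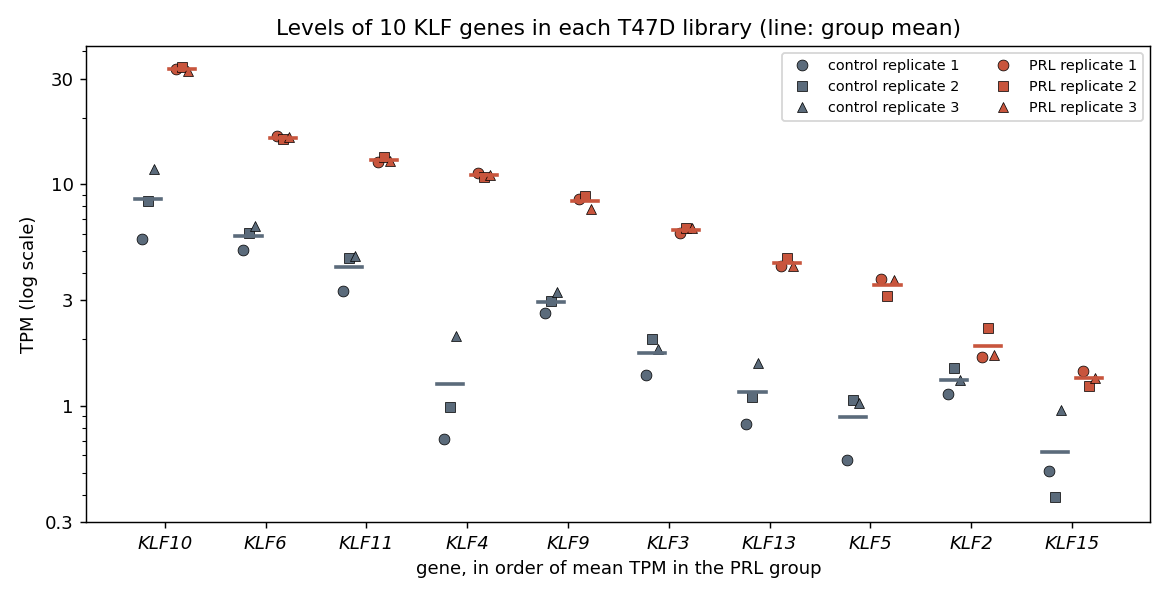
TPM (log scale) of each of the 10 KLF genes in the 3 control libraries (grey) and the 3 PRL libraries (red), with symbols for the replicate numbers and lines for group means. KLF10 has the highest mean in both groups, and KLF4 lies at 0.71 to 2.08 TPM in controls and at 10.8 to 11.2 TPM in the PRL group. The 2 group means of KLF2 lie closest together among the 10 genes.

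KLF4 had the largest rise of the 10. KLF4 encodes a reprogramming factor that also activates the cell cycle inhibitor gene CDKN1A in epithelia, and lies on GRCh38 chromosome 9 from 107484852 to 107490482. Its level was 0.71, 0.99 and 2.08 TPM in control replicates 1 to 3 and 11.24, 10.82 and 11.05 TPM in the PRL replicates. The groups did not overlap, and control replicate 3 lay well above the other controls. These levels rest on 26, 32 and 68 counts in controls and on 317, 315 and 317 in the PRL group. The fold change was 6.52 (log2 change 2.70 with SE 0.23, 95% interval 4.57-fold to 9.30-fold, adjusted p = 5.6e-06 in edgeR). Without control replicate 3 the log2 fold change was 3.22, and on FPKM with a pseudocount of 1, which lowers the change of low genes, it was 2.07. GENCODE 29 names 1 pseudogene of KLF4, with which reads may be shared.

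KLF5, the growth-promoting relative of KLF4, lies on chromosome 13 from 73054976 to 73077542 and started from a low level. It stood at 0.57, 1.07 and 1.03 TPM in controls and 3.74, 3.14 and 3.70 TPM in the PRL group, from 21 to 36 and 101 to 112 counts. The groups did not overlap, and the rise was 3.02-fold (log2 change 1.59 with SE 0.20, adjusted p = 6.1e-05 in edgeR). KLF6, which is known as a tumour suppressor and an early response gene, was among the most abundant of the list (chromosome 10, 3775996 to 3785281). It had 5.04, 6.03 and 6.46 TPM in controls and 16.53, 16 and 16.27 TPM in the PRL group, with no overlap. Its rise of 2.05-fold was the smallest of the 8 but had the narrowest error (log2 change 1.04 with SE 0.08, adjusted p = 2.3e-06 in edgeR).

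KLF2 (chromosome 19, 16324817 to 16327874), known for endothelial and T cell quiescence, did not pass the test. It had 40, 46 and 41 counts in controls and 45, 63 and 47 in the PRL group. In TMM-scaled CPM these were 2.73 ± 0.189 and 2.88 ± 0.518 (SD, n = 3), and the groups overlapped. In TPM the groups did not overlap (1.14, 1.48 and 1.31 in controls and 1.67, 2.25 and 1.71 in the PRL group). TPM carries a general shift: on log2 TPM with a pseudocount of 1, 56.9% of the 12494 genes tested there were called higher. The log2 fold change of KLF2 was 0.08 (SE 0.20, with an adjusted p of 0.76 in edgeR), with a 95% interval of 0.772-fold to 1.44-fold. This interval leaves out a 2-fold change in either direction with TMM scaling. The log2 fold change was 0.33 with library totals and -0.080 without PRL replicate 2. KLF2 has 4 pseudogenes named in GENCODE 29, with which reads may be shared. All 60 counts of the listed genes were whole numbers, and sharing of reads was not tested. The ratio of KLF4 to KLF2 in TPM was 0.623, 0.669 and 1.59 in controls and 6.73, 4.81 and 6.46 in the PRL libraries. The pair joins the genes with the largest and the smallest change of the list, so this ratio only describes them.

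KLF3 (chromosome 4, 38664196 to 38701042), the member that represses through CtBP, rose 2.59-fold. It had 1.39, 2.01 and 1.82 TPM in controls and 6.04, 6.37 and 6.33 TPM in the PRL group, without overlap of the groups (log2 change 1.38 with SE 0.11, adjusted p = 3.6e-06 in edgeR). An antisense gene, KLF3-AS1, covers 4.22% of the bases in its exons, and the use of strand in counting is not given in the sources used here. GENCODE 29 also names 2 pseudogenes of KLF3.

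All 4 Sin3A-binding repressors on the list rose, by 1.05 to 1.51 on the log2 scale. Of all 10 listed genes 8 rose, and 32.4% of all genes tested were called higher. KLF16, a Sin3A-binding member outside the list, did not pass the test (log2 change 0.19). KLF10, first described as an early gene of TGF-beta signalling, had 5.69, 8.39 and 11.8 TPM in controls and 33.0, 33.7 and 32.4 TPM in the PRL group. The controls spread widely, the PRL libraries were close together, and the groups did not overlap. KLF10 rose 2.85-fold (log2 change 1.51 with SE 0.15, adjusted p = 1.5e-05 in edgeR), and by 1.36 to 1.76 on the log2 scale with single libraries left out.

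KLF11 (chromosome 2, 10042849 to 10054836), its closest relative, rose 2.25-fold. Its levels were 3.30, 4.64 and 4.77 TPM in controls and 12.6, 13.3 and 12.8 TPM in the PRL group (log2 change 1.17 with SE 0.10, adjusted p = 5.3e-06 in edgeR), and an antisense gene covers 9.07% of the bases in its exons. KLF13 (chromosome 15, 31326855 to 31435665), a factor that activates the chemokine gene CCL5 in T cells, had 0.83, 1.10 and 1.56 TPM in controls and 4.28, 4.64 and 4.29 TPM in the PRL group. It rose 2.80-fold (log2 change 1.48 with SE 0.15, adjusted p = 1.8e-05 in edgeR). KLF9 (chromosome 9, 70384597 to 70414624), which is induced by thyroid hormone and glucocorticoids and binds the progesterone receptor, had 2.62, 2.99 and 3.27 TPM in controls and 8.61, 8.82 and 7.73 TPM in the PRL group. It rose 2.07-fold (log2 change 1.05 with SE 0.09, adjusted p = 8.2e-06 in edgeR). None of these 3 genes had overlapping groups, in TPM or in TMM-scaled CPM. In CPM every PRL library lay above every control library for 35.9% of all genes.

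KLF15 (chromosome 3, 126342635 to 126357442), a regulator of amino acid and glucose metabolism in liver and muscle, was the least abundant. It had 16, 11 and 27 counts in controls and 35, 31 and 33 in the PRL group, or 0.51, 0.39 and 0.96 TPM and 1.44, 1.23 and 1.34 TPM. Every PRL library lay above every control library. The log2 fold change of 0.66 (SE 0.31, with an adjusted p of 0.082 in edgeR) did not pass the test, with a 95% interval of 0.987-fold to 2.54-fold. Without control replicate 3 it was 1.06 and passed (in edgeR, adjusted p = 0.0090), and with library totals it was 0.92 and passed as well (adjusted p = 0.027).

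**Figure D2:**
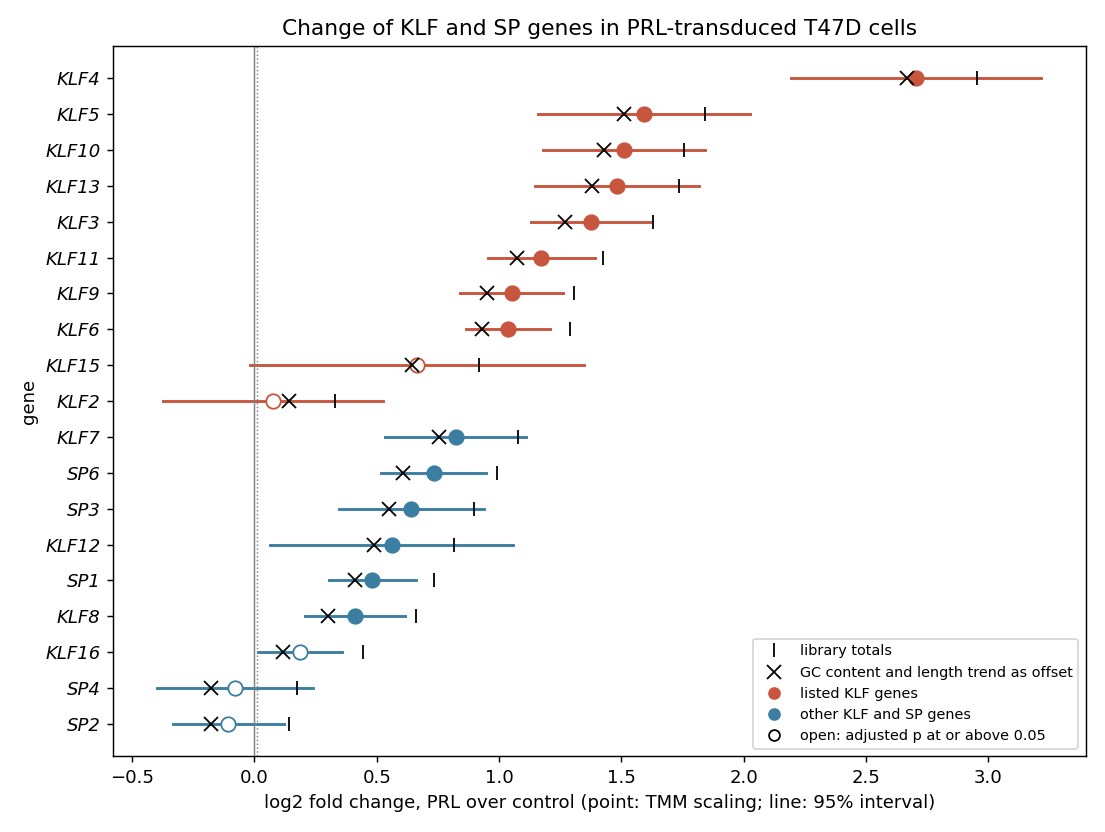
Log2 fold change (PRL over control) of the 10 listed KLF genes (red) and of 9 other KLF and SP genes that passed the filter (blue). Points use TMM scaling, lines are 95% intervals, open points did not pass the test, and bars and crosses give the value with library totals or with the GC content and length trend taken out. KLF4 stands at 2.70 and KLF2 at 0.08, and library totals shift all genes to the right.

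Control replicate 3 was the highest control for 7 of the 10 KLF genes in CPM. This held for 38% of all tested genes and for 56.1% of the 4554 genes that were higher in the PRL group. The coefficient of variation was larger among controls than among PRL libraries for 8 of the 10 genes, near the 84.0% of all tested genes for which this held. KLF4 had 50.7% among controls and 2.18% among PRL libraries. The count of 8 rises held with any single library left out, and was 9 without control replicate 3, when KLF15 was added.

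The 10 genes together summed to 21.8, 29.09 and 35.01 TPM in control replicates 1 to 3 and to 99.17, 100.28 and 97.58 TPM in the PRL replicates. TPM carries a shift of genes in general: on log2 TPM with a pseudocount of 1, the median change of the 12494 genes tested there was 0.39. In TMM-scaled CPM the 10 genes summed to 74.8, 81.9 and 94.5 in controls and to 204, 213 and 210 in the PRL group. The order of levels per length in controls was KLF10, KLF6, KLF11, KLF9, KLF3, KLF2, KLF4, KLF13, KLF5 and KLF15. From KLF3 downward each gene's range over the controls overlapped that of the next, as did those of KLF10 and KLF6. Within single controls, KLF10 stood above KLF6, KLF3 above KLF2, KLF13 above KLF5 and KLF5 above KLF15 in all 3 libraries. Among neighbours in this order, only KLF2 against KLF4 and KLF4 against KLF13 changed places between controls. Genes further apart also did: KLF4 stood above KLF3 in control replicate 3 (2.08 against 1.82 TPM) but below it in the other controls. In the PRL group the order was KLF10, KLF6, KLF11, KLF4, KLF9, KLF3, KLF13, KLF5, KLF2 and KLF15, so that KLF4 stood above KLF9 and KLF2 below KLF5. No neighbours overlapped there. The share of KLF4 in the TPM sum was 3.26%, 3.40% and 5.94% in controls and 11.3%, 10.8% and 11.3% in the PRL group. The listed Sin3A-binding members (without KLF16) together made up 57.1% to 61.0% of the TPM sum in controls and 58.6% to 60.3% in the PRL group. The ranges of these shares overlapped.

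**Figure D3:**
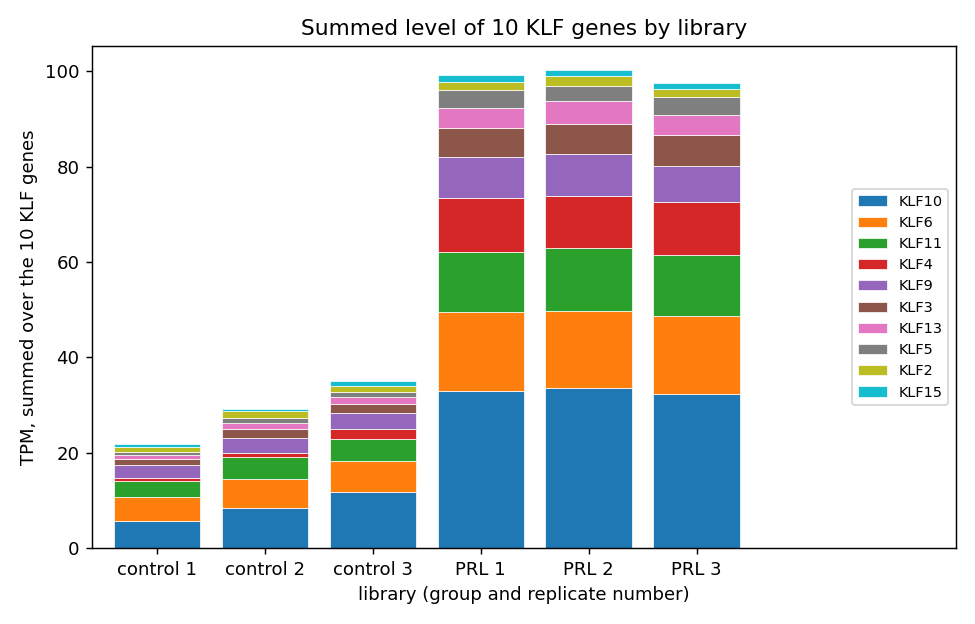
TPM summed over the 10 KLF genes in each library, with each gene as 1 segment. The sum is 21.8 to 35.01 TPM in the controls and 97.58 to 100.28 TPM in the PRL libraries, and the KLF4 segment is a larger part of the PRL bars.

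The genes with the profile most like that of KLF4 were FNTB, CAPN11 and BMI1. Likeness was the Euclidean distance between log2 CPM profiles over 6 libraries, each centred on its own mean, and came to 0.38, 0.47 and 0.48. These profiles hold a prior count of 2, which lowers the change of low genes. In edgeR the log2 fold changes were 2.65, 3.87 and 2.81, against 2.70 for KLF4. FNTB (a subunit of protein farnesyltransferase) and BMI1 (a Polycomb protein) share exons with the readthrough genes CHURC1-FNTB and COMMD3-BMI1, whose counts in controls summed to 1201 and 1193, against 87 for FNTB and 36 for BMI1. The division of reads between each pair is uncertain. CAPN11, a calpain gene, rests on few reads, with 3 counts summed over controls and 56 summed over PRL libraries.

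The other members of the zinc finger family had log2 fold changes of -0.11 to 0.82. Of 17 further KLF and SP genes that were listed, 14 were in the deposited table and 9 passed the filter. Of these 9, 6 rose, 0 fell (also at an unadjusted p of 0.05, and in DESeq2 with 5 higher and 0 lower) and 3 did not pass, with a median log2 fold change of 0.48. Among all genes 32.4% were higher and 30.5% lower. KLF7 rose 1.77-fold, from 5.40 ± 0.572 to 9.56 ± 0.650 CPM (log2 change 0.82 with SE 0.13, adjusted p = 3.1e-04 in edgeR). SP6, an epithelial member of the SP branch, rose 1.66-fold (log2 change 0.73 with SE 0.10, adjusted p = 9.6e-05 in edgeR). SP1 and SP3, the broadly expressed factors that occupy GC boxes, rose by 0.48 and 0.64 on the log2 scale (in edgeR, adjusted p = 4.4e-04 and 0.0018). KLF8 and KLF12, which bind CtBP as KLF3 does, had log2 fold changes of 0.41 and 0.56 (in edgeR, adjusted p = 0.0028 and 0.049). KLF12 rests on 19 to 39 counts a library, and its call ended in 13 of 16 alternatives.

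KLF16, a further Sin3A-binding member, stood above the mean of each listed gene in controls, at 20.6 ± 1.99 TPM, and had 32.1 ± 0.548 TPM in the PRL group. In CPM it went from 44.5 ± 2.81 to 50.7 ± 1.05 and did not pass (log2 change 0.19 with SE 0.08, adjusted p = 0.054 in edgeR), but it passed in 8 of 18 alternatives. SP2 and SP4 had log2 fold changes of -0.11 and -0.08 (in edgeR, adjusted p = 0.38 and 0.65), which turned positive with library totals. KLF1, KLF14, KLF17, SP5 and SP7 were too low to test, and KLF18, SP8 and SP9 were not found by symbol in the deposited table.

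Genes that encode partners and regulators of KLF proteins went both ways. Of 35 tested, 20 rose, 4 fell and 11 did not pass, with a median log2 fold change of 0.29, where 32.4% of all genes were higher and 30.5% lower. The 4 lower genes were TGFBR1, SMAD3, SMAD4 and CTBP1, of which the last 3 were named after their values were seen. TGFBR1, the type I receptor of TGF-beta, which is known to induce KLF10 and KLF11, fell from 63.9 ± 1.85 to 20.0 ± 0.756 CPM (log2 change -1.68 with SE 0.08, adjusted p = 6.3e-08 in edgeR). The signal carriers SMAD3 and SMAD4 had log2 fold changes of -0.45 and -0.38 (in edgeR, adjusted p = 0.0061 and 0.0032). With library totals, on FPKM and on TPM the calls of SMAD3, SMAD4 and CTBP1 ended. TGFBR2, the type II receptor, was near 0 in both groups (0.112 ± 0.142 and 0.111 ± 0.111 CPM).

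The upstream genes with the smallest adjusted p among the rises were THRB, FOXO3 and MEF2D. THRB, a thyroid hormone receptor gene, rose from 16.2 ± 1.11 to 40.8 ± 1.94 CPM (log2 change 1.34 with SE 0.09, adjusted p = 9.9e-07 in edgeR). FOXO3, a forkhead factor that is restrained by AKT, rose from 37.8 ± 0.930 to 75.7 ± 1.47 CPM (log2 change 1.0 with SE 0.07, adjusted p = 1.5e-06 in edgeR). MEF2D rose from 29.5 ± 2.64 to 58.6 ± 0.288 CPM (log2 change 0.99 with SE 0.08, adjusted p = 5.3e-06 in edgeR). MEF2A, named after its values were seen, rose by 0.82 (in edgeR, adjusted p = 7.8e-05), and the ERK5 gene MAPK7, chosen likewise, had a log2 fold change of 0.29 (in edgeR, adjusted p = 0.037), whose call ended in 8 of 18 alternatives.

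Of 11 cofactor genes 5 rose, 1 fell and 5 did not pass, where 32.4% of all genes were higher and 30.5% lower, and their log2 fold changes were small, from -0.24 for CTBP1 to 0.66 for KAT2B, an acetyltransferase gene that was named after its values were seen. CTBP1, the partner of KLF3, had 215 ± 13.8 and 181 ± 1.99 CPM (log2 change -0.24, adjusted p = 0.016 in edgeR), and 0.013 with library totals. This call also ended without any 1 of the PRL libraries (adjusted p = 0.057 to 0.074). SIN3A, the partner of KLF9, KLF10, KLF11 and KLF13, had 62.7 ± 4.39 and 74.4 ± 2.16 CPM (log2 change 0.25, adjusted p = 0.017 in edgeR), a call that ended without PRL replicate 1 or 2 (adjusted p = 0.074 and 0.078). Of 6 genes for the turnover of KLF proteins 4 rose, beside the same 32.4% of all genes. WWP1, a ubiquitin ligase that marks KLF5 and KLF2 for degradation, rose from 13.9 ± 4.09 to 45.2 ± 0.786 CPM (log2 change 1.70 with SE 0.16, adjusted p = 1.0e-05 in edgeR). It was named after its values were seen. Protein levels were not measured.

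Genes reported elsewhere as KLF targets also went both ways: of 21 tested, 11 rose, 7 fell and 3 did not pass, with a median log2 fold change of 0.79, beside 32.4% higher and 30.5% lower among all genes. The share of targets that fell is near that background. The list does not record which KLF acts on a gene in these cells or in which direction, so the counts do not measure KLF activity. CDKN1A, which encodes the cell cycle inhibitor p21 and is activated by KLF4 and KLF6, rose from 23.9 ± 1.36 to 81.0 ± 1.69 CPM (log2 change 1.76 with SE 0.08, adjusted p = 4.6e-08 in edgeR). TNFAIP2, a KLF5 target in breast cancer cells, rose from 30.4 ± 3.18 to 79.0 ± 3.33 CPM (log2 change 1.38 with SE 0.09, adjusted p = 9.3e-07 in edgeR). TXNIP, an arrestin-like inhibitor of glucose uptake, rose by 1.32 (SE 0.09, with an adjusted p of 1.6e-06 in edgeR), and TGFB1, the TGF-beta ligand gene, by 1.6 (SE 0.12, with an adjusted p of 3.0e-06 in edgeR).

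Other targets, named after their values were seen, went in both directions, also those linked to 1 factor. FGFBP1 and CCND1, both reported to be activated by KLF5, fell by 3.35 and 1.40 on the log2 scale (in edgeR, adjusted p = 1.1e-05 and 5.5e-06), while KLF5 and TNFAIP2 rose. CCND1, which KLF4 is reported to repress, encodes cyclin D1 and went from 219 ± 36.8 to 83.2 ± 5.10 CPM. CCL5, the chemokine gene linked to KLF13, rose from 9.50 ± 4.47 to 34.2 ± 1.91 CPM (log2 change 1.85 with SE 0.24, adjusted p = 8.2e-05 in edgeR), and by 1.58 to 2.27 on the log2 scale with single libraries left out. LGALS3, a gene reported to be repressed by KLF3, had a log2 fold change of -0.43 (in edgeR, adjusted p = 8.8e-04). Its call ended after removal of the trends on GC content and length (-0.086, adjusted p = 0.31 in edgeR), and on TPM its log2 fold change was 0.023.

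**Figure D4:**
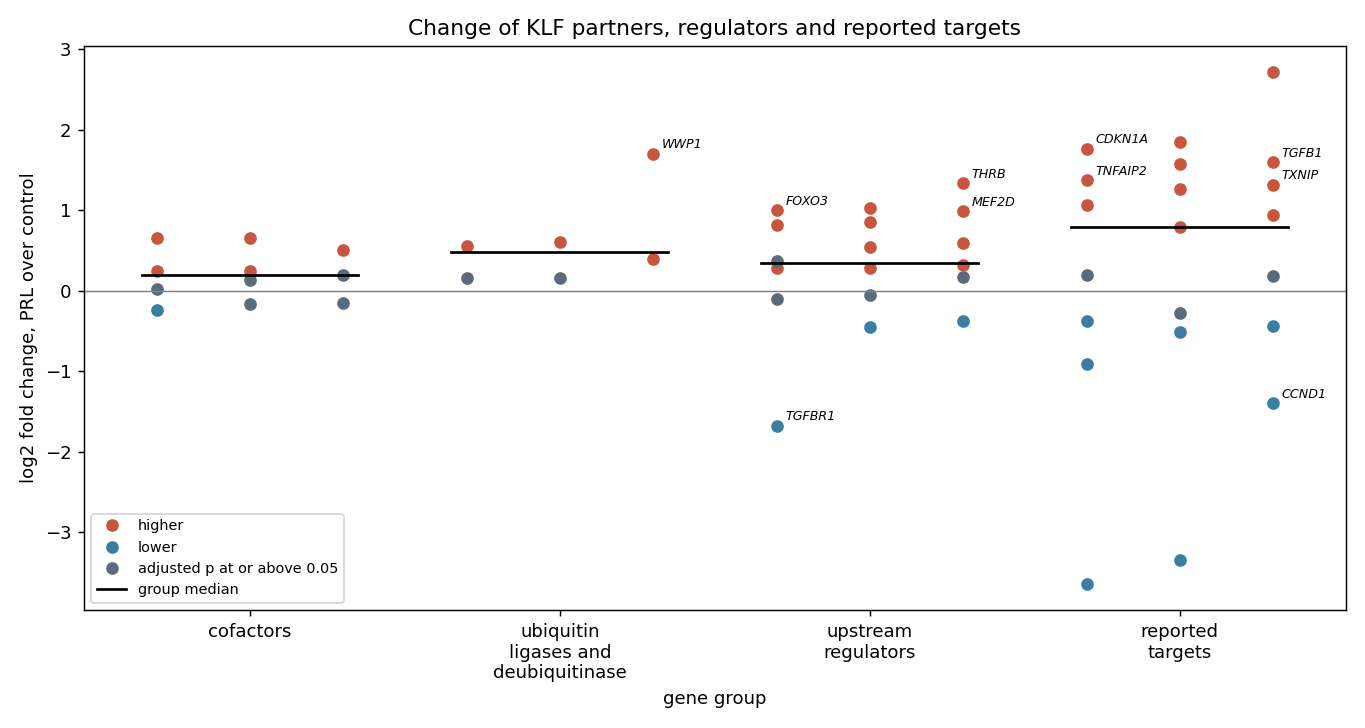
Log2 fold change (PRL over control) of the tested cofactors, turnover genes, upstream regulators and reported targets of KLF proteins, with 1 point a gene, coloured by its call, and lines for group medians. The targets span -3.65 to 2.72, while the cofactors lie between -0.24 and 0.66.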

How the data were processed

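RNA was measured in 6 T47D libraries, grouped by their titles. The submitters' processing notes name HISAT2 2.1.0, Bowtie2 2.3.4.3 and the build GRCh38.p13. How reads were counted, on which annotation and with which strand setting is not given in the sources used here. For each library the authors deposited TPM, FPKM and an estimated count for every gene, per the file headers. Counts were rounded before testing. All 18 single-library columns matched the titles, and 6 columns of group means were not used.

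PRL was compared with control in R 4.3.3 with edgeR 4.0.16 (robust quasi-likelihood fit, group as the only term, the filterByExpr filter, TMM scaling, Benjamini-Hochberg adjustment over 14076 genes, threshold 0.05). Standard errors are the absolute log2 fold change over the root of the F statistic, and 95% intervals use the t distribution with the fit's degrees of freedom. TMM-scaled CPM and deposited TPM give levels. For a gene at 0, counting error alone permits 3 counts in a library (0.165 to 0.203 CPM).

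Alternatives were scaling by library totals, the upper quartile or DESeq2 size factors, leaving out ribosomal protein genes, testing without a filter or with CPM of 1 or more in 3 libraries, limma-voom (limma 3.58.1), DESeq2 1.42.0, a block for replicate number, leaving out single libraries, limma-trend on log2 FPKM or TPM (pseudocount 1, mean of at least 1), and each library's smooth trend on GC content and length (mgcv 1.9.3) as an offset that keeps the TMM centre. GC content and length came from GENCODE 29 transcripts for 98.7% of tested genes.

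The members and lists were chosen with earlier results of these data known. The rule for named genes took the listed KLF genes, tested KLF and SP genes, the 4 partners or regulators and the 4 targets with the smallest adjusted p, and the 3 genes nearest in profile to the listed gene with the largest rise and to the one with the largest fall. No listed gene fell. Promoter sequences are from RefSeq.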

Additional observations from a re-analysis of the deposited data

How the results depend on the processing

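The rises of KLF3, KLF4, KLF5, KLF6, KLF9, KLF10, KLF11 and KLF13 kept their direction and call in all 18 alternatives, and KLF2 did not pass in any. KLF15 was below the minimum mean of 1 on FPKM and TPM. With single libraries left out, 8 to 9 listed KLF genes were higher and 0 lower, 5 to 6 other KLF and SP genes higher and 0 lower, 15 to 25 partners and regulators higher and 3 to 5 lower, and 11 targets higher and 6 to 8 lower. The 4 lower partners and regulators were 1 with library totals, 1 on FPKM and 1 on TPM, and the 7 lower targets were 3 on TPM. These settings also moved the median of all genes upwards. Among the genes named in the text, for which alternatives were computed gene by gene, log2 fold changes turned sign for SP2 (0.14 with library totals, 0.15 on FPKM, 0.34 on TPM and -0.19 to 0.0042 with single libraries left out), SP4 (0.17 with library totals, 0.21 on TPM), CTBP1 (0.013 with library totals, 0.084 on TPM), SMAD4 (0.058 on TPM), LGALS3 (0.023 on TPM) and KLF2 (-0.080 to 0.17 with single libraries left out, negative without PRL replicate 2). The cause was not tested. The labels give both groups replicate numbers 1 to 3. Deviations of same-numbered libraries correlated at -0.11, 0.04 and -0.06. These values cannot tell whether same-numbered libraries were prepared together, since each deviation also holds counting noise. With the replicate block 8 listed KLF genes were higher and 0 lower, 5 other KLF and SP genes higher and 0 lower, 19 partners and regulators higher and 4 lower, and 11 targets higher and 8 lower. Depth limits KLF2, KLF4, KLF5 and KLF15 most among the listed genes, with 11 to 68 counts in a control library.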
